A study of Mus musculus with 36 samples.

Results

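The 9 genes described here encode secreted proteoglycans of the extracellular matrix. Bgn (biglycan), Dcn (decorin), Aspn (asporin), Lum (lumican), Fmod (fibromodulin), Prelp, Omd (osteomodulin) and Ogn (osteoglycin) are small leucine-rich proteoglycans, and Prg4 encodes lubricin. The genes were chosen by name, with earlier results of these data known. For each of them, the probe sets whose platform annotation gave that symbol alone were taken, and the probe set with the highest mean over 36 arrays was used. They are 9 of the 18193 genes that had such a probe set. Of the 9, 8 passed the filter on dim genes and were tested. The exception was Omd, whose values are given without a test.

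Small leucine-rich proteoglycans have a core of leucine-rich repeats that binds collagen, and many carry glycosaminoglycan chains. They govern the width and spacing of collagen fibrils and hold growth factors such as TGF-beta in the matrix, and soluble biglycan and decorin can signal through Toll-like receptors. Lubricin is a large mucin-like glycoprotein that coats joint surfaces and lowers friction. In the thymus, fibroblasts build the collagen of the capsule and septa, while cortical and medullary epithelial cells form the network in which thymocytes mature.

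The RNA came from 6 cell populations that were sorted by flow cytometry from digested thymi of wild-type male C57BL/6J mice, and it was amplified and hybridised to Affymetrix mouse expression arrays. The populations were fibroblasts, epithelial cells of the cortex (cTEC), epithelial cells of the medulla with high (mTEChi) or low (mTEClo) CD80 and MHC class II, and Sirpa+ and Sirpa- dendritic cells (DC). Mice were 1, 3 or 6 months old, with 2 arrays per population and age, 6 per population and 36 in all. No treatment or mutation is given for any group. The labels name 1 mouse for each sample and the design text 2 mice for each age, so arrays of an age may come from the same animals, and p-values measure only the spread between these samples. An effect of age and a difference between those animals cannot be told apart. In sorted bulk samples, fewer cells of a type and less RNA per cell cannot be told apart either.

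Array medians lay between 5.61 and 5.75 on the log2 scale, and the 2 arrays of a group correlated at 0.949 to 0.994 over all genes. The marker lists of the sorted cells matched the labels. The 10 fibroblast markers, for example, averaged 8.76 to 11.46 in fibroblast arrays and 5.63 to 7.10 in all other arrays. The second fibroblast array at 6 months stood apart, with the lowest fibroblast marker mean (8.76) of the 6. Fibroblast arrays also carried thymocyte RNA. The mean of 11 thymocyte markers was 8.63 to 10.99 in them, and all 11 were higher in fibroblasts than in the mean of the other 5 populations. Many fibroblast results are given with and without the second array at 6 months, though not every count that it changes. Values are log2 signals of 1 probe set per gene, so they are compared between samples and not between genes. A value under 5.66, the median of all values, is called dim.

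Each gene had its own distribution over the populations. Bgn and Lum were high in fibroblasts, Dcn in fibroblasts and cTEC, Prelp and Ogn in cTEC and fibroblasts, and Fmod in cTEC and then mTEClo. Aspn was high in fibroblasts and second in mTEChi, where most arrays were dim. Prg4 was high in mTEChi at all ages and in mTEClo and cTEC at 3 months. In DC, the 8 tested genes were all low. The tests compared each population with the mean of the other 5 in limma, and a gene was called at a Benjamini-Hochberg adjusted p under 0.05 and a difference of at least 2-fold.

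**Figure D1:**
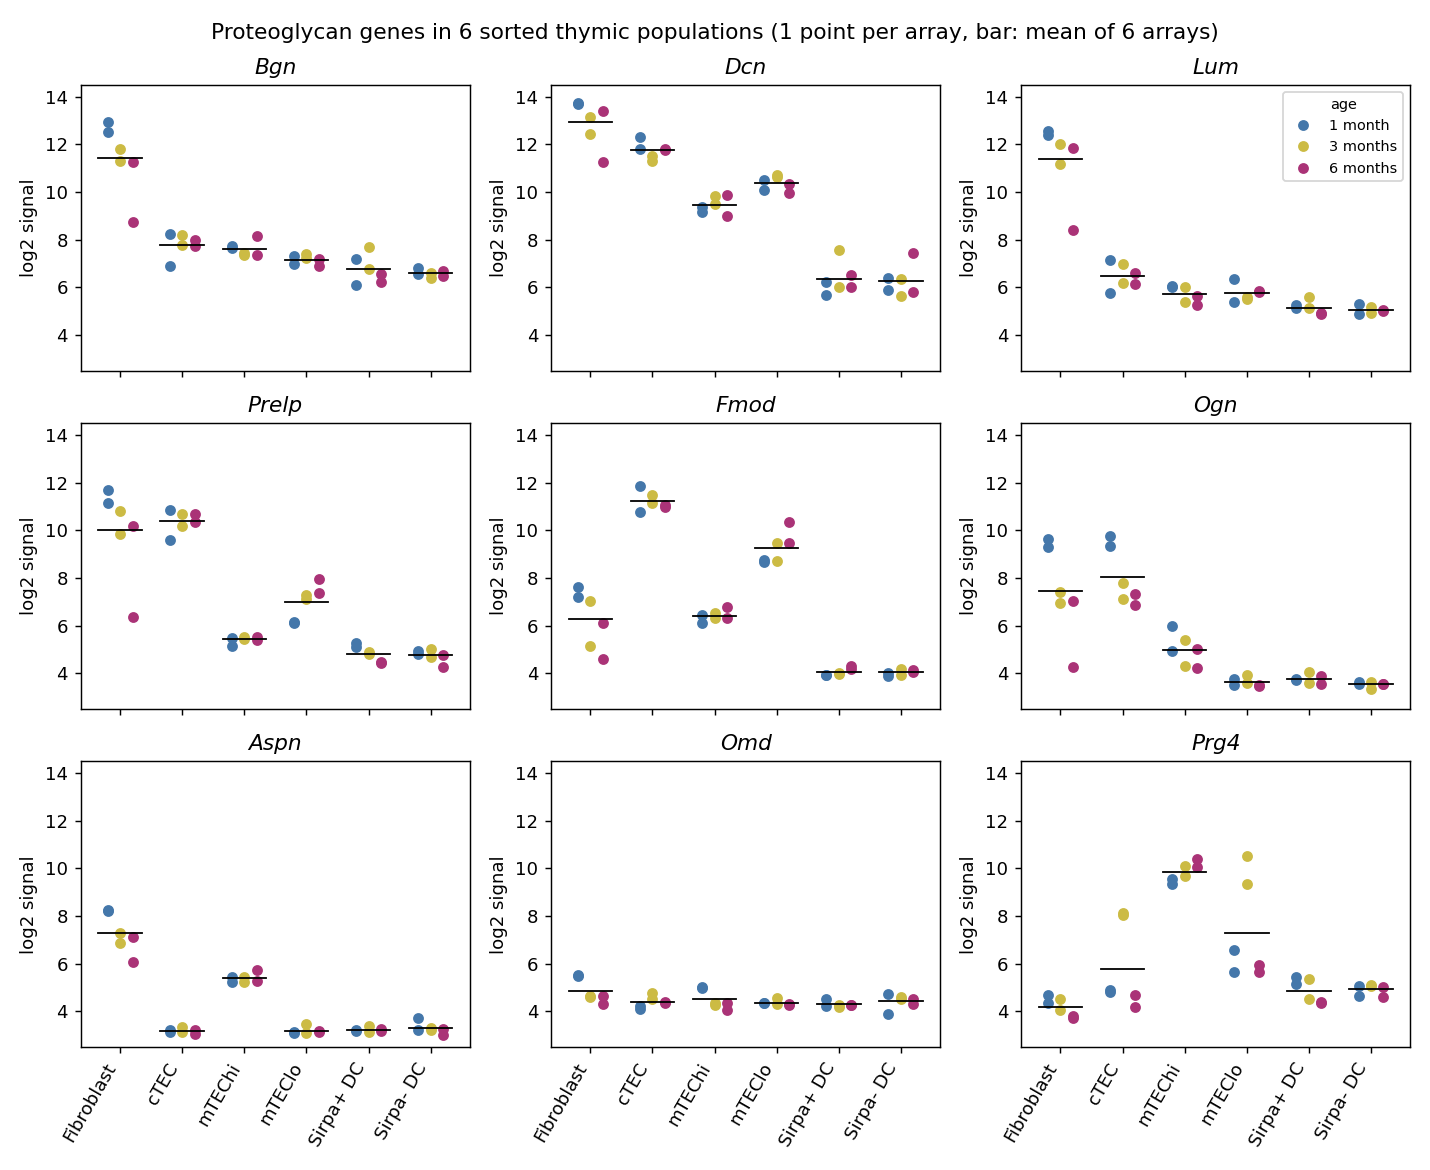
Log2 signal (vertical axis) of the 9 genes in 6 sorted populations, with 1 point per array, coloured by age, and a bar at the mean of 6 arrays. Fibroblast points of Bgn and Lum lie above all others, cTEC points lead for Fmod, and the 3-month points of Prg4 stand above the other ages in cTEC and mTEClo.

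Against the mean of the other 5 populations, 6 of the 8 tested genes were higher and 1 was lower in fibroblasts, where 18.4% of all genes were called either way. Of the 6, Prelp and Ogn were short of 2-fold in fibroblasts with their second probe sets. In cTEC 4 were higher and 1 was lower (16.1% of all genes), in mTEChi 2 and 2 (19.2%), and in mTEClo 3 and 3 (14.8%). In Sirpa+ DC all 8 were lower, against 10.2% of all genes called lower, and in Sirpa- DC all 8 were lower, against 13.0%. Without the second fibroblast array at 6 months, the same 6 genes were higher and Prg4 lower in fibroblasts. For epithelial cells and DC, the mean of the other 5 populations includes the fibroblasts, so these values are partly set by them. Without the 6 fibroblast arrays, 5 genes were called in cTEC, 3 in mTEChi and 3 in mTEClo. Lum was then called higher in cTEC (1.05), and Aspn no longer reached 2-fold in cTEC. In the same fit, 5 of the 8 remained lower at 2-fold in each DC population, and Bgn, Lum and Aspn did not reach 2-fold. Outside fibroblasts, Aspn passed the filter line only in the second mTEChi array at 6 months. Its higher value in fibroblasts, in the comparisons below too, is thus partly set by the filter. The same holds for its lower values in DC, cTEC and mTEClo. Prg4 was lower in DC than in the mean of the others, yet its DC means (4.87 and 4.92) exceeded its fibroblast mean (4.19). Aspn means were 3.23 in Sirpa+ and 3.30 in Sirpa- DC, and 3.19 in cTEC and 3.18 in mTEClo. Ogn had 3.76 in Sirpa+ DC and 3.63 in mTEClo, with overlapping ranges. For these 2 genes, low values were thus shared with epithelial populations.

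Several of the genes lie side by side in the mouse genome (RefSeq, GRCm38.p6). Prelp and Fmod are neighbours on chromosome 1, between Optc and Btg2. Aspn, Omd and Ogn follow each other on chromosome 13, between Ecm2 and Nol8. Dcn and Lum are neighbours on chromosome 10. The 250 bases before the annotated start of the transcript are shown for Prelp and Fmod, which were both called higher in cTEC, and for Aspn and Ogn, whose levels went different ways in mTEChi and cTEC. Capitals mark matches to TATAAA or CCAAT on either strand. The regions are chr1:133921402-133921651 on the minus strand (Prelp), chr1:134037004-134037253 on the plus strand (Fmod), chr13:49544193-49544442 on the plus strand (Aspn) and chr13:49607765-49608014 on the plus strand (Ogn).
Prelp: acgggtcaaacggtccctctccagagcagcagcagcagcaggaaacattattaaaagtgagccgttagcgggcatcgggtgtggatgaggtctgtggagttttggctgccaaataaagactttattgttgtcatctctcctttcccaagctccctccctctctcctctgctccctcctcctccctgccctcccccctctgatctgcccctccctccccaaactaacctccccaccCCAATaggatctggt
Fmod: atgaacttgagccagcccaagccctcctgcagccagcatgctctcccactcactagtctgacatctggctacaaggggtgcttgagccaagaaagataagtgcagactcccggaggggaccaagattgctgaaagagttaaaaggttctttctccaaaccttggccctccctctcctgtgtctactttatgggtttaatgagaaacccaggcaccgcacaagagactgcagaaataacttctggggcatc
Aspn: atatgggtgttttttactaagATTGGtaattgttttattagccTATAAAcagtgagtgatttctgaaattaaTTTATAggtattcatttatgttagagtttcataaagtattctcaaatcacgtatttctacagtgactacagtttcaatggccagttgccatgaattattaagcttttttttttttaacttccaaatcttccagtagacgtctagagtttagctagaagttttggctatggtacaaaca
Ogn: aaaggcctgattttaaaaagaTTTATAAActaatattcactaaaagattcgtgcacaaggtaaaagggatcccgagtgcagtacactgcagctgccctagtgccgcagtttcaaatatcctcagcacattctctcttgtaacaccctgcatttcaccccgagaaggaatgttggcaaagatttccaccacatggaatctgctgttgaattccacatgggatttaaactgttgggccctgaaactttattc
The Prelp window held 1 CCAAT, 15 bases before the start, and the Fmod window held neither motif. The Aspn window held 2 TATAAA and 1 CCAAT, and the Ogn window 2 overlapping TATAAA, all of them 178 bases or more before the start. Of 32851 promoter windows of this length, 12.4% held TATAAA and 33.8% held CCAAT. The AP-1 motif TGANTCA and the GC box GGGCGG were searched on both strands too and are in none of these 4 windows, against 6.75% and 32.7% of all windows. The windows differ in base composition, with 30.0% G or C for Aspn, 42.0% for Ogn, 51.2% for Fmod and 55.6% for Prelp.

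Biglycan and decorin are close relatives that carry chondroitin or dermatan sulfate chains and bind type I collagen and TGF-beta. Bgn had its lowest, median and highest log2 signal at 8.76, 11.57 and 12.96 in fibroblasts, and at 6.89, 7.88 and 8.22 in cTEC. Its range was 7.34 to 8.16 in mTEChi, 6.90 to 7.38 in mTEClo, 6.12 to 7.68 in Sirpa+ DC and 6.39 to 6.80 in Sirpa- DC. All fibroblast arrays lay above all others, and the 5 other populations overlapped with their neighbours in the order of means. Bgn was 19.1-fold higher in fibroblasts than in the mean of the other 5 (log2 4.26 ± 0.23, SE; limma adjusted p = 2.91e-14), and 25.6-fold without the second array at 6 months. It was called in no epithelial population.

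Dcn was spread more widely. It ranged from 11.25 to 13.75 in fibroblasts (median 13.28), from 11.29 to 12.33 in cTEC (median 11.79), from 9.0 to 9.86 in mTEChi and from 9.96 to 10.70 in mTEClo. In DC it was 5.70 to 7.57 (Sirpa+) and 5.66 to 7.43 (Sirpa-). Fibroblasts and cTEC overlapped, and below them cTEC, mTEClo, mTEChi and DC were separate steps. Dcn was 17.2-fold higher in fibroblasts (log2 4.11 ± 0.24, adjusted p = 1.12e-13), 22.1-fold without the second array at 6 months, and 6.41-fold higher in cTEC (log2 2.68 ± 0.24, adjusted p = 4.03e-10). In mTEClo it was 2.03-fold higher (adjusted p = 0.000697), just past the 2-fold line. The value was 0.95 on the log2 scale, under that line, without the second fibroblast array at 6 months, and also when any of 5 other arrays was left out. The second Dcn probe set is dim and gave -0.15 for the same comparison. For cTEC it gave 0.30, short of 2-fold.

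Asporin, which has a run of aspartic acids in place of the glycosaminoglycan attachment sites, binds collagen and hinders TGF-beta signalling. Aspn was 6.06 to 8.27 in fibroblasts (median 7.20), 3.05 to 3.35 in cTEC, 5.22 to 5.75 in mTEChi and 3.09 to 3.46 in mTEClo. In DC it lay between 3.02 and 3.74. Fibroblasts stood apart from mTEChi, and mTEChi from all other populations, whose values overlapped. Outside fibroblasts all values were dim except the highest mTEChi array (5.75). The filter asked for at least 2 arrays above 5.66, so Aspn was tested only through its high fibroblast arrays. Its higher value in fibroblasts and its lower values in cTEC and mTEClo are thus partly set by the filter. Aspn was 12.5-fold higher in fibroblasts (log2 3.64 ± 0.11, adjusted p = 5.21e-19) and 2.56-fold higher in mTEChi (log2 1.36 ± 0.11, adjusted p = 4.94e-11) than in the mean of the other 5. It was lower in cTEC (log2 -1.29 ± 0.11, adjusted p = 1.78e-10) and mTEClo (log2 -1.30 ± 0.11, adjusted p = 1.71e-10). With the fibroblast arrays out of the mean of the others, these differences were -0.59 and -0.60, short of 2-fold.

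Lumican and fibromodulin carry keratan sulfate chains and bind the same region of type I collagen. Their levels followed different orders over the populations. Lum was 8.42 to 12.55 in fibroblasts (median 11.93), 5.76 to 7.14 in cTEC (median 6.40), 5.24 to 6.07 in mTEChi and 5.37 to 6.35 in mTEClo. In DC it was 4.90 to 5.59. All fibroblast arrays were above all others, by 54.5-fold in the test against the other 5 populations (log2 5.77 ± 0.27, adjusted p = 2.61e-15), the 7th largest of 1214 genes called higher there. The fold was 81.0 without the second array at 6 months. The other populations overlapped step by step. Lum was also called lower in mTEChi (log2 -1.05, adjusted p = 0.00159) and mTEClo (log2 -1.01, adjusted p = 0.00278), in both just past 2-fold. The mTEClo call was lost in 11 of the 36 fits that left out 1 array. With the 6 fibroblast arrays out of the mean of the others, Lum was 0.11 in mTEChi and 0.15 in mTEClo, of the other sign.

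Fmod was 4.59 to 7.64 in fibroblasts (median 6.57), 10.76 to 11.86 in cTEC (median 11.11), 6.10 to 6.78 in mTEChi and 8.66 to 10.36 in mTEClo (median 9.11). In DC it was 3.87 to 4.32. All cTEC arrays lay above all others, and mTEClo arrays above mTEChi and fibroblasts, which overlapped. Fmod was 37.0-fold higher in cTEC than in the mean of the other 5 (log2 5.21 ± 0.20, adjusted p = 6.25e-17), the 3rd largest of 1411 genes called higher in cTEC. It was 7.13-fold higher in mTEClo (log2 2.83 ± 0.20, adjusted p = 8.33e-12). In fibroblasts its difference was log2 -0.71 ± 0.20 (adjusted p = 0.00361), short of 2-fold. The 5 other Fmod probe sets correlated with this one at 0.879 to 0.958 over the 36 arrays. In mTEClo 1 of them gave 0.61, short of 2-fold.

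Prelp, which anchors basement membranes to the collagen beneath through heparan sulfate, had 6.35 to 11.70 in fibroblasts (median 10.48), 9.61 to 10.84 in cTEC (median 10.53), 5.15 to 5.51 in mTEChi and 6.10 to 7.96 in mTEClo (median 7.19). In DC it was 4.26 to 5.27. Fibroblasts and cTEC overlapped, and mTEClo stood above mTEChi. Prelp was 16.0-fold higher in cTEC (log2 4.0 ± 0.28, adjusted p = 6.73e-12) and 11.5-fold higher in fibroblasts (log2 3.52 ± 0.28, adjusted p = 6.10e-11), or 17.8-fold without the second array at 6 months. In mTEChi it was lower (log2 -1.97 ± 0.28, adjusted p = 1.20e-06). With the second Prelp probe set the difference was 1.42 in cTEC, 0.88 in fibroblasts and -0.85 in mTEChi. The fibroblast and mTEChi values were then short of 2-fold.

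Omd, best known from bone matrix, had 5.53 and 5.48 at 1 month, 4.66 and 4.61 at 3 months and 4.64 and 4.31 at 6 months in fibroblasts. In all other arrays it was 3.89 to 5.0. The fibroblast arrays at 1 month were the highest of the 36, and all arrays were dim.

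Osteoglycin, also called mimecan, is a keratan sulfate proteoglycan of cornea, bone and other connective tissue. Ogn was 4.25 to 9.63 in fibroblasts (median 7.24), 6.88 to 9.74 in cTEC (median 7.55), 4.22 to 5.99 in mTEChi and 3.48 to 3.92 in mTEClo. In DC it was 3.32 to 4.04. The range of the fibroblasts overlapped that of cTEC above it and that of mTEChi below it, and mTEClo did not differ from DC beyond their spread. Ogn was 10.3-fold higher in cTEC (log2 3.36 ± 0.23, adjusted p = 5.08e-12) and 6.27-fold higher in fibroblasts (log2 2.65 ± 0.23, adjusted p = 3.61e-10), or 8.66-fold without the second array at 6 months. It was lower in mTEClo (log2 -1.92 ± 0.23, adjusted p = 1.34e-07). With the second Ogn probe set the difference was 1.57 in cTEC, 0.82 in fibroblasts and -0.91 in mTEClo. The fibroblast and mTEClo values were then short of 2-fold.

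Prg4 was 3.74 to 4.68 in fibroblasts, 4.17 to 8.14 in cTEC (median 4.87), 9.35 to 10.40 in mTEChi (median 9.88) and 5.64 to 10.52 in mTEClo (median 6.26). In DC it was 4.34 to 5.43 (Sirpa+) and 4.62 to 5.13 (Sirpa-). The mTEChi arrays lay above all others except the mTEClo arrays of 3 months. Prg4 was 21.8-fold higher in mTEChi than in the mean of the other 5 (log2 4.45 ± 0.14, adjusted p = 7.97e-19) and 2.56-fold higher in mTEClo (log2 1.35 ± 0.14, adjusted p = 1.36e-08). The mTEClo difference was 0.92, short of 2-fold, with the fibroblasts out of the mean. In fibroblasts it was lower (log2 -2.35 ± 0.14, adjusted p = 3.70e-13). Of 5 mesothelial markers tested, 4 were also higher in mTEChi, as were all 3 adipocyte markers tested, against 19.2% of all genes called either way. The mean of all 8 listed mesothelial markers was 6.04 to 6.40 in mTEChi arrays and 4.45 to 6.12 in all others. Of these, Msln had population means of 9.10 in mTEChi and 8.66 in mTEClo, and Krt19 had 8.91 in mTEChi and 9.23 in cTEC. The part of these markers in the result was not tested.

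Pairs of populations were compared next. Between fibroblasts and cTEC, 4 of 8 genes were higher and 2 were lower in fibroblasts, against 21.3% of all genes called either way. Lum was 30.4-fold higher (log2 4.93 ± 0.35, adjusted p = 8.29e-12), Aspn 17.3-fold (log2 4.11 ± 0.14), Bgn 12.5-fold (log2 3.65 ± 0.29) and Dcn 2.28-fold (log2 1.19 ± 0.31, adjusted p = 0.00175). Fmod was 30.5-fold lower (log2 -4.93 ± 0.26, adjusted p = 2.54e-14) and Prg4 3.04-fold lower. Prg4 was at 4.52, 4.28 and 3.77 in fibroblasts at 1, 3 and 6 months and at 4.87, 8.09 and 4.43 in cTEC, so the distance was wide at 3 months and both were dim at the other ages. For Ogn the difference was -0.60 ± 0.30 (adjusted p = 0.0974) and for Prelp -0.40 ± 0.36 (adjusted p = 0.366). Without the first fibroblast array at 6 months, Dcn fell short of 2-fold (0.83) while Ogn (-1.06) and Prelp (-1.04) were called lower. Without the second one, the same 6 genes were called and Prelp was 0.24. The 10 fibroblast markers averaged 8.76 to 11.46 in fibroblast arrays and 6.11 to 6.67 in cTEC arrays. Single markers of the list differed. Pdgfra had group means of 9.55 to 11.67 in fibroblasts and 4.85 to 5.20 in cTEC. Col3a1 had 11.67 to 14.11 and 9.18 to 9.70, and Thy1 12.35 to 12.47 and 8.45 to 10.64. The rest of the list had lower group means in cTEC. They were 6.40 to 7.58 for Col1a2, 5.70 to 6.44 for Postn, 5.30 to 5.91 for Pdgfrb and 5.59 to 5.74 for Col1a1. Dpp4 had 4.76 to 5.84, Pi16 4.79 to 5.15 and Mfap5 4.57 to 4.97. In cTEC at 1, 3 and 6 months, Thy1 was 10.64, 8.45 and 9.24 and the thymocyte marker mean 8.32, 6.86 and 7.88. The part of fibroblast RNA in the cTEC values was not tested.

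Between cTEC and the mean of the mTEC populations, 4 genes were higher and 2 were lower in cTEC, against 13.6% of all genes. Prelp was 18.3-fold higher (log2 4.19 ± 0.32), Ogn 13.3-fold (log2 3.73 ± 0.26), Fmod 10.5-fold (log2 3.39 ± 0.23) and Dcn 3.58-fold (log2 1.84 ± 0.26). These were the 6th, 12th, 21st and 183rd largest of 783 genes called higher. Prg4 was 6.86-fold lower (log2 -2.78 ± 0.16, adjusted p = 3.53e-13) and Aspn 2.15-fold lower (log2 -1.10 ± 0.12). Fibroblast markers were higher in 1 and lower in 2 of 10 in this comparison, and thymocyte markers were higher in 9 of 11. The mean of 5 B cell markers had a median over arrays of 9.21 in cTEC, 6.92 in mTEClo and 7.74 in mTEChi. Their part in the results was not tested.

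Between the mTEC populations, 3 genes were higher and 2 were lower in mTEChi, against 19.6% of all genes. Prg4 was 5.98-fold higher (log2 2.58 ± 0.19, adjusted p = 1.37e-11), Aspn 4.65-fold (log2 2.22 ± 0.14) and Ogn 2.53-fold (log2 1.34 ± 0.30, adjusted p = 0.000522). The Prg4 value is a mean over ages that differed. Its group means were 9.46, 9.88 and 10.24 in mTEChi at 1, 3 and 6 months and 6.11, 9.93 and 5.80 in mTEClo, which leaves the arrays of 3 months overlapping. Fmod was 7.06-fold lower (log2 -2.82 ± 0.26, adjusted p = 1.28e-09) and Prelp 2.98-fold lower (log2 -1.57 ± 0.36, adjusted p = 0.000699). Dcn was -0.92 ± 0.31, short of 2-fold. When the probe sets of each gene were averaged, Ogn (0.83) and Prelp (-0.91) also fell short of 2-fold. Between Sirpa+ and Sirpa- DC none of the 8 was called in limma, and none had an unadjusted p under 0.05, against 5.37% of all genes called.

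**Figure D2:**
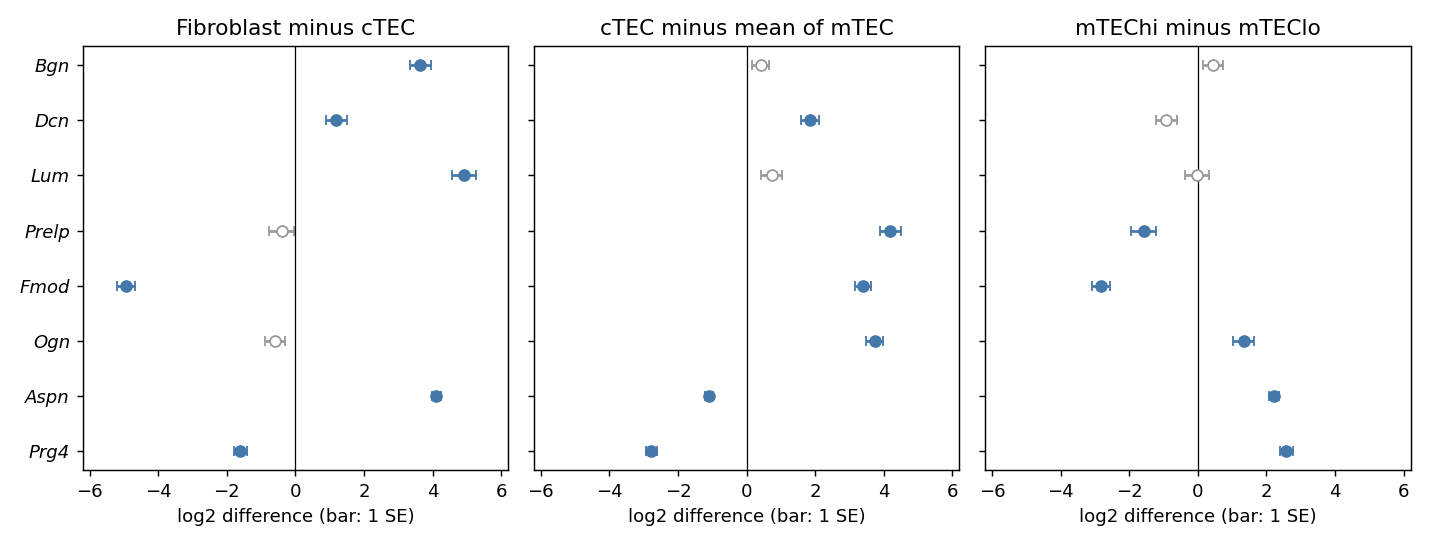
Log2 differences (horizontal axis) of the 8 tested genes in 3 comparisons, with bars of 1 SE from limma and filled points for called genes. Fmod lies far left and Lum far right in fibroblasts minus cTEC, and Prelp, Ogn, Fmod and Dcn lie right of 0 in cTEC minus mTEC.

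Age was compared within each population, 2 arrays at each age, with the residual variance estimated over all 18 groups, and a call at an adjusted p under 0.05. Prg4 had the clearest change. In cTEC it was 4.90 and 4.83 at 1 month, 8.03 and 8.14 at 3 months and 4.69 and 4.17 at 6 months. In mTEClo it was 5.66 and 6.57 at 1 month, 9.33 and 10.52 at 3 months and 5.64 and 5.96 at 6 months. In both populations the 3-month arrays lay above all arrays of the other ages, which overlapped or lay close together. In mTEChi it was 9.57 and 9.35, 9.67 and 10.09, and 10.40 and 10.08 at 1, 3 and 6 months, with no such peak.

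At 3 against 1 month, Prg4 was 9.32-fold higher in cTEC (log2 3.22 ± 0.32, adjusted p = 3.17e-06) and 14.1-fold higher in mTEClo (log2 3.82 ± 0.32, adjusted p = 1.07e-07). In each it was the largest increase of all genes called, 221 in cTEC and 90 in mTEClo. At 6 against 3 months it was 12.6-fold lower in cTEC (log2 -3.66 ± 0.32, adjusted p = 2.54e-07) and 17.5-fold lower in mTEClo (log2 -4.13 ± 0.32, adjusted p = 4.09e-08), with the same 3-month arrays. Between 6 and 1 month the difference was -0.44 in cTEC (adjusted p = 0.505) and -0.31 in mTEClo (adjusted p = 0.645). These 4 calls held in each of 36 fits that left out 1 array.

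Other markers moved with age in the same arrays. In cTEC, the mean of 8 cTEC markers was 11.25, 10.19 and 10.67 at 1, 3 and 6 months, that of thymocyte markers 8.32, 6.86 and 7.88, and that of 8 mesothelial markers 5.40, 5.78 and 5.71. Of the mesothelial genes, Krt19 had 8.16, 10.03 and 9.49, Msln 5.61, 6.74 and 6.43, Upk1b 5.70, 6.23 and 5.92, and Gpm6a 6.03, 6.17 and 6.43. The others stayed dim and were not higher at 3 months than at 1 month. Upk3b had 4.75, 4.56 and 4.75, Wt1 4.82, 4.67 and 4.74, Lrrn4 3.97, 3.74 and 3.78, and Muc16 4.13, 4.11 and 4.15. In mTEClo, mesothelial markers were 5.49, 5.37 and 5.40, mTEC markers 10.18, 9.54 and 9.87, and Aire, the regulator of tissue antigens in mTEChi, was 8.86, 7.14 and 6.78. The part of these markers in the Prg4 result was not tested.

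The changes of Prg4 differed between populations. A moderated F-test over 10 population-by-age contrasts called 3 of the 8 genes, against 15.7% of all genes, and Prg4 was one of them (F = 23.7, adjusted p = 1.85e-06). The others were Ogn (F = 4.88, adjusted p = 0.011) and Aspn (F = 4.19, adjusted p = 0.0203). The change from 1 to 3 months was also set against its mean in the other 5 populations. That comparison called 1 gene in mTEClo, Prg4 (log2 3.16 ± 0.35, adjusted p = 1.40e-05; 0.855% of all genes), and 1 gene in cTEC, Prg4 (log2 2.45 ± 0.35, adjusted p = 0.000109; 3.66% of all genes). In Sirpa+ DC 1 gene was called, Prg4 (log2 -1.85, adjusted p = 0.0237; 0.166% of all genes). There Prg4 was 5.43 and 5.17 at 1 month and 4.54 and 5.34 at 3 months, which overlap, and the mean it was set against includes cTEC and mTEClo. That call was lost without either Sirpa+ array of 1 month or the first of 3 months.

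**Figure D3:**
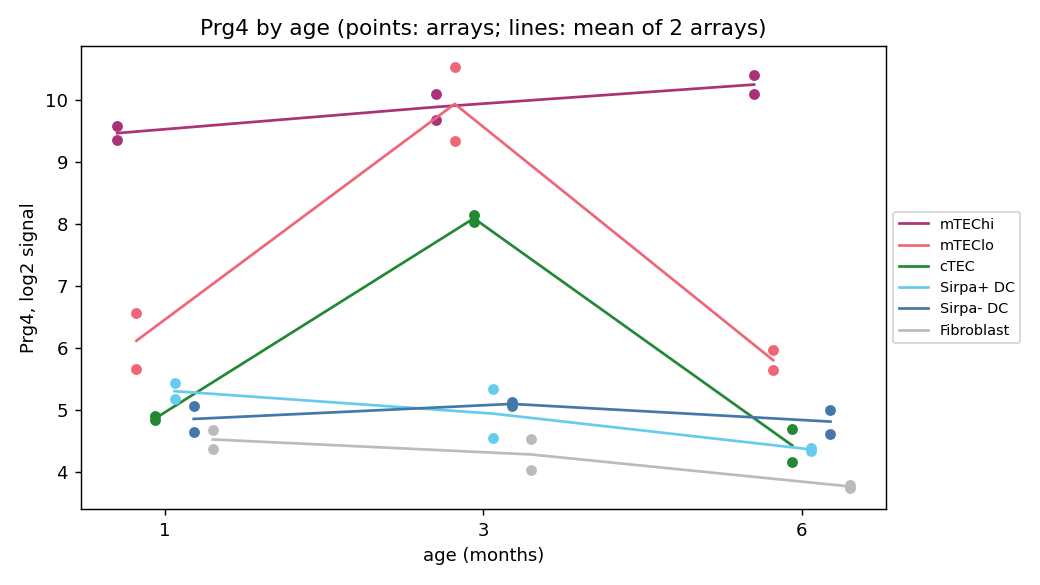
Prg4 log2 signal (vertical axis) against age in months, with 1 point per array and lines through the means of 2 arrays. The mTEClo and cTEC lines peak at 3 months, while the mTEChi line stays between 9.46 and 10.24.

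Counts for the remaining ages were low outside fibroblasts. In cTEC at 3 against 1 month, 1 gene was higher (Prg4) and 1 was lower (Ogn), against 5.40% of all genes. At 6 against 1 month 1 was lower (Ogn; 6.45% of all genes), and at 6 against 3 months 1 was lower (Prg4; 3.84%). In mTEClo, 1 gene was called at 3 against 1 month (1.77% of all genes) and 1 at 6 against 3 months (2.39%), Prg4 both times. At 6 against 1 month none was called in mTEClo (6.42% of all genes), while Fmod and Prelp had unadjusted p under 0.05.

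Ogn in cTEC was 9.33 and 9.74 at 1 month, 7.77 and 7.13 at 3 months and 7.33 and 6.88 at 6 months. Both 1-month arrays were above all later ones, and the 3- and 6-month arrays overlapped. The level fell by 2.08 ± 0.52 on the log2 scale at 3 months (4.23-fold lower, adjusted p = 0.0197) and by 2.43 ± 0.52 at 6 months (5.39-fold lower, adjusted p = 0.00535). The call at 3 months was lost when any of the 4 cTEC arrays of 1 and 3 months was left out (adjusted p = 0.0596 to 0.143), and that at 6 months without the second cTEC array of 6 months (adjusted p = 0.0654). Against the mean of the other 5 populations, the Ogn difference in cTEC was -1.52 at 3 months (adjusted p = 0.15) and -1.46 at 6 months (adjusted p = 0.234), and neither was called. At 6 months none of the 8 was called (2.30% of all genes), and Ogn alone had an unadjusted p under 0.05. Without the second fibroblast array at 6 months, Ogn was called at both 3 months (-1.52, adjusted p = 0.0162) and 6 months (-1.74, adjusted p = 0.00913), and without the first at 3 months.

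Prelp in mTEClo was 6.14 and 6.10 at 1 month, 7.10 and 7.28 at 3 months and 7.96 and 7.37 at 6 months, with each age above the one before it. The difference of 6 from 1 month was 1.54 ± 0.63 and was not called. It was called without either fibroblast array of 6 months (adjusted p = 0.00271 without the second). Against the other 5 populations, no gene was called in mTEClo at 6 months (3.81% of all genes), with Fmod, Ogn and Prelp at unadjusted p under 0.05. Without the second fibroblast array at 6 months, Prelp was called there (1.92, adjusted p = 0.00183). Without the first, Prelp (2.69), Fmod (1.68) and Ogn (1.57) were called. Fmod was also called without either fibroblast array of 3 months (1.52), and Prelp without the first cTEC array of 1 month (2.43).

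In mTEChi none of the 8 was called at 3 against 1 month (0% of all genes; none at unadjusted p under 0.05), at 6 against 1 month (9.51%; Prg4 at unadjusted p) or at 6 against 3 months (7.87%; none). Against the other 5 populations, none was called in mTEChi at 3 months (0% of all genes; Prg4 at unadjusted p) and 1 at 6 months, Prg4 (log2 1.28, adjusted p = 0.0448; 3.43% of all genes). That call was lost in 23 of the 36 fits without 1 array.

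DC had no called gene within any age comparison. Percentages of all genes called in Sirpa+ DC were 0.331% at 3 against 1 month, 2.06% at 6 against 1 month and 1.23% at 6 against 3 months, and only Prg4 at 6 against 1 month had an unadjusted p under 0.05 among the 8. In Sirpa- DC they were 0.0345%, 0.904% and 0.290%, with none of the 8 at unadjusted p under 0.05. Against the other 5 populations, none was called in Sirpa+ DC at 6 months (0.200% of all genes; Ogn and Prg4 at unadjusted p). The same held for Sirpa- DC at 3 months (0.00690%; Prg4 at unadjusted p) and at 6 months (0.186%; Ogn at unadjusted p).

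In fibroblasts, 7 of the 8 genes were lower at 6 months than at 1 month, against 20.4% of all genes called lower, and 3 of these calls were lost without 1 array. In a fit of the 6 fibroblast arrays alone, 1 of the 8 was called (Ogn, adjusted p = 0.0488). The SD of the 2 arrays at 6 months was 2.70 for Prelp, 2.43 for Lum and 1.98 for Ogn, and the SDs of these genes in the groups of other populations were all under 1. Lum was 12.55 and 12.39 at 1 month, 12.01 and 11.20 at 3 months, and 11.85 and 8.42 at 6 months. Prelp was 11.70 and 11.14, then 10.79 and 9.83, then 10.17 and 6.35. Bgn was 12.96 and 12.52, then 11.83 and 11.32, then 11.27 and 8.76. In all 3, the second array at 6 months was far below the other 5, while the first was near the 3-month arrays.

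Ogn was 9.63 and 9.31 at 1 month, 7.43 and 6.93 at 3 months, and 7.05 and 4.25 at 6 months. Aspn was 8.27 and 8.20, then 7.29 and 6.89, then 7.11 and 6.06. Both 1-month arrays lay above all later ones, as they did for all 7 genes called. Dcn was 13.75 and 13.69, then 13.14 and 12.45, then 13.41 and 11.25. Fmod was 7.64 and 7.20, then 7.02 and 5.16, then 6.11 and 4.59, so its 3- and 6-month arrays overlapped.

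At 6 against 1 month, Ogn was 14.1-fold lower (log2 -3.82 ± 0.52, adjusted p = 1.09e-05), Prelp 8.92-fold (log2 -3.16 ± 0.63), Bgn 6.59-fold (log2 -2.72 ± 0.51), Lum 5.02-fold (log2 -2.33 ± 0.61), Fmod 4.21-fold (log2 -2.07 ± 0.45), Aspn 3.12-fold (log2 -1.64 ± 0.24) and Dcn 2.62-fold (log2 -1.39 ± 0.53). Prg4 was -0.76 ± 0.32 and not called. Without the second array at 6 months, 1 array is left at that age, and fewer of all genes were called as well. Ogn (-2.42), Bgn (-1.47), Prelp (-1.25) and Aspn (-1.12) were then still called. Fmod (-1.31), Lum (-0.61) and Dcn (-0.31) were lost. The Dcn call was also lost without either 1-month array (adjusted p = 0.167 and 0.0965).

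At 3 against 1 month, 3 genes were lower in fibroblasts, against 10.4% of all genes called lower. They were Ogn (log2 -2.29 ± 0.52, adjusted p = 0.00294), Fmod (log2 -1.33 ± 0.45, adjusted p = 0.0391) and Aspn (log2 -1.14 ± 0.24, adjusted p = 0.0017). None was called without the second array of 3 months, where Ogn was -2.04, Aspn -0.94 and Fmod -0.40, and Fmod was lost without the first array of 1 month too (-1.11). Without either array of 6 months, 5 were called. At 6 against 3 months 3 were lower (Prelp, Bgn and Ogn; 9.24% of all genes), none without the second array of 6 months, none without the first of 3 months and 7 without the first of 6 months. Ogn was lost there in 27 of the 36 fits without 1 array, and Bgn also without the second array of 3 months (-1.81).

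Against the mean change of the other 5 populations, 4 genes fell further in fibroblasts at 3 months (7.80% of all genes lower) and 6 at 6 months (15.6% of all genes lower). The 4 were Ogn (-1.77), Prg4 (-1.71), Fmod (-1.47) and Aspn (-1.16). Prg4 itself was -0.24 ± 0.32 within fibroblasts, and the mean it was set against includes cTEC and mTEClo. The 6 were Prelp (-3.33), Ogn (-3.12), Bgn (-2.70), Fmod (-2.40), Lum (-2.11) and Aspn (-1.61). Without the second array at 6 months Ogn, Prelp and Aspn remained. Without the second array of 3 months, only Prg4 of the 4 was called. Ogn was also lost without the first array of 1 month (-1.61) or of 3 months (-2.02), and the Fmod call held in 26 of the 36 fits.

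Marker lists moved in the same fibroblast arrays. The fibroblast marker mean was 11.31 and 11.46 at 1 month, 10.63 and 10.33 at 3 months, and 10.32 and 8.76 at 6 months. Its genes did not all move alike. By group means at 1, 3 and 6 months, Thy1 changed little (12.47, 12.40 and 12.35) and Dpp4 rose (6.72, 7.94 and 8.81). The rest of the list was lower at 6 months than at 1 month. The thymocyte marker mean was 8.63 and 10.22, then 10.33 and 10.29, then 10.65 and 10.99. The mural cell marker mean was 10.90 and 10.35, then 9.85 and 9.25, then 9.83 and 8.93. At 6 against 1 month, the fibroblast mean thus changed by -1.84 and the thymocyte mean by 1.40, and by -1.06 and 1.23 with the first array of 6 months alone. Between the 2 arrays of 6 months, the second minus the first was -3.82 for Prelp, -3.43 for Lum, -2.80 for Ogn, -2.51 for Bgn, -2.16 for Dcn, -1.52 for Fmod and -1.05 for Aspn. The part of fibroblast and thymocyte RNA in the changes with age was not tested.

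**Figure D4:**
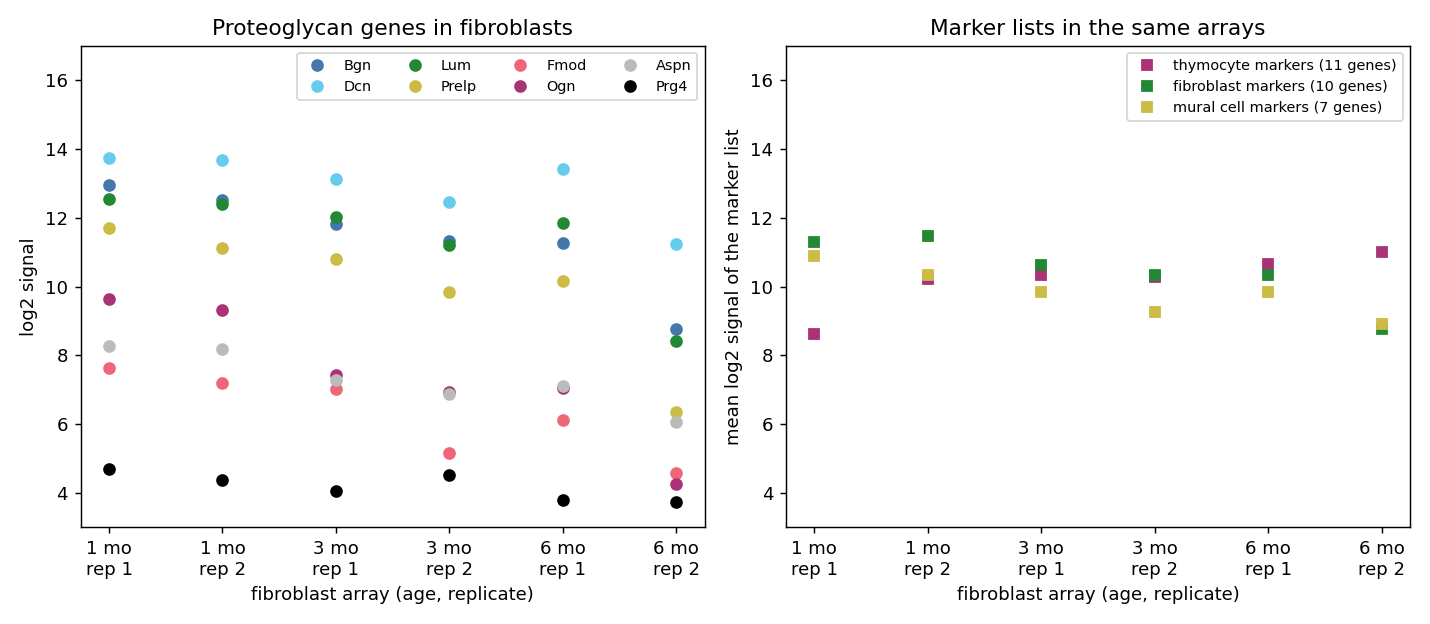
Left, log2 signal (vertical axis) of the 8 tested genes in each fibroblast array, ordered by age. Right, the mean log2 signal of 3 marker lists in the same arrays. The second array at 6 months is lowest for the 8 genes, Prg4 being dim in all 6, and for the fibroblast list (8.76), while the thymocyte list is highest there (10.99).

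Genes that act with these proteoglycans were read from lists, which overlap the markers in Col1a1, Col1a2 and Col3a1. Of 16 genes for fibrillar collagens and their crosslinking, 9 were higher and none was lower in fibroblasts against the other 5 populations (18.4% of all genes called), with a median of 1.32 against -0.04 for all genes. Col1a2 was highest (6.05), followed by Col3a1 (5.43), Col5a2 (3.40) and Col1a1 (3.20), chains of type I, III and V collagen. In cTEC 4 were higher and 1 was lower (16.1% of all genes), among them Plod2 (2.18) and Lox (1.87), enzymes that prepare and form collagen crosslinks, with a median of -0.11 against -0.07 for all genes. In fibroblasts at 6 against 1 month 14 of the 16 were lower (median -2.75, all genes -0.07; 20.4% of all genes called lower), led by Col14a1 (-4.25) and Col5a3 (-3.84). Without the second array at 6 months fewer were called lower, as for all genes, and the median was -1.56 (all genes -0.09).

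Of 13 genes for proteases that process or cut these proteoglycans and for their helpers, 5 were higher and 2 were lower in fibroblasts (18.4% of all genes called; median 0.61, all genes -0.04). Pcolce, no protease itself but the enhancer of procollagen cleavage by Bmp1, was 4.64, Adamts5, which cuts aggrecan, 3.37 and Mmp3 2.75. In fibroblasts 8 fell at 6 against 1 month (20.4% of all genes). Among them were Mmp2 (-3.79) and Bmp1 (-2.73), which trims the propeptides of procollagen and biglycan. Without the second array at 6 months fewer were called lower, as for all genes, and the median was -1.35 (all genes -0.09). In cTEC 3 were higher and 3 were lower (16.1% of all genes called).

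Glycosaminoglycan chain synthesis had 27 tested genes. In fibroblasts 2 were higher (Csgalnact1 at 1.28 and Chsy1 at 1.04) and 2 were lower, and in cTEC 4 were higher and 1 was lower. Both shares are near those of all genes called, 18.4% in fibroblasts and 16.1% in cTEC. The cTEC genes were led by Dsel (2.10), which makes dermatan sulfate, and with Papss2 (-1.84), which makes the sulfate donor, lower. At 6 against 1 month in fibroblasts 12 were lower (median -0.59, 20.4% of all genes), among them Chst7 (-2.17) and Chpf (-1.74). Without the second array at 6 months fewer were called lower, as for all genes, and the median was -0.57 (all genes -0.09).

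Among 23 other proteoglycans, 5 were higher and 8 were lower in fibroblasts (18.4% of all genes called), with Sdc2 at 2.51 and Tgfbr3, the betaglycan that presents TGF-beta, at 2.18. In cTEC 9 were higher and 2 were lower (16.1% of all genes). Ptprz1, a receptor phosphatase that carries chondroitin sulfate, was 3.78, Tgfbr3 3.07, the glypican Gpc5 2.92 and the syndecan Sdc1 2.71. In mTEChi against mTEClo 4 were higher and 6 were lower (19.6% of all genes), with Spock1 at 2.51 and Bcan at 2.44. In fibroblasts at 6 against 1 month 10 were lower (20.4% of all genes) and 2 were higher, led by Gpc4 (-3.29) and Vcan (-3.03). Without the second array at 6 months fewer were called lower, as for all genes, and the median was -0.46 (all genes -0.09).

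Of 20 partners and receptors, 4 were higher and 5 were lower in fibroblasts (18.4% of all genes called). Met, the HGF receptor to which decorin binds, was -4.69, and Ccn2, a matricellular factor, was 3.95. Of 10 further small leucine-rich repeat genes, 5 were tested and none was called in fibroblasts or cTEC against the other 5 populations. Epyc, a class III relative of Ogn, was 2.86 higher in mTEChi against the other 5 (adjusted p = 6.60e-15) and 1.42 higher in mTEChi against mTEClo (adjusted p = 6.18e-07).

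The profiles over the 18 groups of population and age were correlated, as a description. The groups of a population share their sort, and most of the likeness comes from the differences between populations. Bgn and Lum were most alike (r = 0.985), followed by Dcn and Prelp (0.889) and Bgn and Aspn (0.884). Lum and Prg4 had -0.329 and Fmod and Aspn -0.13. Among neighbours in the genome, r was 0.749 for Dcn and Lum, 0.716 for Prelp and Fmod, 0.652 for Aspn and Omd and 0.478 for Omd and Ogn.

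Among all genes tested, the gene most like each was Col1a2 for Bgn (r = 0.976), Sdc2 for Dcn (0.968), Abca8a for Lum (0.982), Bnc2 for Fmod (0.984), Gper1 for Ogn (0.976), Hand2 for Omd (0.881), Nr2f1 for Prelp (0.965), Rarres2 for Aspn (0.975) and Sprr1a for Prg4 (0.942), each over 18 group means. The next were Fxyd1 and Septin4 for Bgn, Ppic and Sparc for Dcn, Aoc3 and Fxyd1 for Lum, Prkci and Tmem53 for Fmod, Prss23 and Egflam for Ogn, Sfrp2 and Tnxb for Omd, Thra and Pmp22 for Prelp, and Slc16a12 and Prkg1 for Aspn. For Prg4 they were Tmc5 (0.938) and Serpinb1b (0.919). Sprr1a, a protein of the cornified envelope of squamous epithelia, had group means of 5.81, 7.90 and 6.62 in cTEC at 1, 3 and 6 months, 8.38, 10.49 and 8.01 in mTEClo, and 9.89, 10.08 and 10.28 in mTEChi.

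Of the genes beside the members, Btg2 had population means of 8.83 to 10.83, Nol8 7.25 to 7.71 and Haus7 6.90 to 7.17, and none of them shared the wide range of its neighbour. Optc, next to Prelp, was 5.09 to 5.64, and Ecm2, Kera and Hmcn1 were dim and not tested.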

How the data were processed

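Affymetrix mouse expression arrays measured the RNA of 36 samples. The deposited table holds log2 signals that the authors normalized with GCRMA, per the submitters' processing notes, and placed in the Gene Expression Commons framework, per the design text. The GCRMA version is not given in the sources used here, and the log base was inferred from their range. There are no detection calls, so precision is set by how many arrays a group has.

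Of 45101 probe sets, 34945 had 1 gene symbol in the platform annotation, 932 had several, 9160 had none and 64 were controls. For each of 18193 genes the probe set with the highest mean was used, and 14495 genes above 5.66 in at least 2 arrays were tested. limma 3.58.1 (R 4.3.3) fitted 18 group means with a trended empirical Bayes step, and p-values were adjusted over all genes tested by Benjamini-Hochberg. Population differences also needed 2-fold. The fit was tested on simulated data. The members and lists were chosen with earlier results of these data known. Named genes are the 9 members and up to 4 called genes per list and comparison with the largest difference. They also include the 3 genes outside the members most alike to each member, and its neighbours in the RefSeq gene table. Promoter windows come from RefSeq (GRCm38.p6) and matched 6 of the 9 members.

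Alternatives were the mean of all probe sets, other probe sets, quantile normalization, equal array medians, other filters, array weights, a replicate block, 4-fold, the arrays of 1 population alone, no fibroblasts, and each array left out in turn. The fit without the second fibroblast array at 6 months was chosen for separate report after seeing the data.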

Additional observations from a re-analysis of the deposited data

Results flagged for a closer look

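Within each population, the highest and lowest of 6 arrays were set against the others for every gene, in 54 cases of gene and population. In 8 of them 1 array lay far from the rest by Dixon's criterion, and chance flags about 1 in 20 groups. The second fibroblast array at 6 months was lowest for Lum (8.42) and Prelp (6.35). The first cTEC array at 1 month was lowest for Bgn (6.89), and the first mTEChi array at 1 month was lowest for Prelp (5.15). The last of these is a dim value, as are the other 4. They were Ogn in the second Sirpa- DC array at 3 months (3.32), Omd in the second mTEClo array at 3 months (4.55), Omd in the first Sirpa+ DC array at 1 month (4.52) and Aspn in the second mTEClo array at 3 months (3.46).

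The change with age differed from the mean of the other 5 populations in 14 cases of gene and population, by limma. For Prg4 at 3 against 1 month the difference was 2.45 in cTEC (adjusted p = 0.000109), 3.16 in mTEClo (adjusted p = 1.40e-05), -1.85 in Sirpa+ DC (adjusted p = 0.0237) and -1.71 in fibroblasts (adjusted p = 0.00158). For Prg4 at 6 against 1 month it was 1.28 in mTEChi (adjusted p = 0.0448). In fibroblasts at 3 against 1 month it was -1.47 for Fmod (adjusted p = 0.0408), -1.77 for Ogn (adjusted p = 0.0334) and -1.16 for Aspn (adjusted p = 0.00377). In fibroblasts at 6 against 1 month it was -2.70 for Bgn, -2.11 for Lum, -2.40 for Fmod, -3.12 for Ogn, -3.33 for Prelp and -1.61 for Aspn, with adjusted p of 0.00106, 0.0207, 0.00106, 0.000391, 0.00111 and 0.000161 in that order.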

How the results depend on the processing

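Counts of genes called among the 8 are given here. With the mean of all probe sets, 3 were called in mTEChi against mTEClo, 1 in mTEClo at 6 against 1 month, 1 in fibroblasts at 6 against 3 months and 1 in mTEClo at 6 months against the other 5 populations. Quantile normalization, equal array medians and array weights each gave 0 in mTEChi at 6 months against the other 5. Equal array medians also gave 1 in fibroblasts at 6 against 3 months and 1 in mTEClo at 6 months against the other 5. Without the filter, 1 was called in mTEChi at 6 against 1 month and 2 in cTEC at 3 months against the other 5. Array weights gave 2 in mTEClo and 1 in Sirpa+ DC at 6 against 1 month, 1 in fibroblasts at 6 against 3 months, 3 in mTEClo at 6 months and 0 in Sirpa+ DC at 3 months against the other 5. At 4-fold, 1 was called in mTEClo, 1 in mTEChi, 4 in Sirpa- DC and 3 in Sirpa+ DC against the other populations, and 3 in mTEChi against mTEClo. With the 6 arrays of the population alone, 1 was called in mTEClo at 6 against 1 month, and 0, 1 and 0 in fibroblasts at 3 against 1, 6 against 1 and 6 against 3 months. Without fibroblasts, 3 were called in mTEClo and 5 in each DC population. Each fit without 1 array gave 1 to 2 in cTEC at 3 against 1 month and 0 to 1 at 6 against 1 month, and 0 to 1 in mTEClo at 6 against 1 month. In fibroblasts it gave 0 to 5 at 3 against 1 month, 4 to 8 at 6 against 1 month and 0 to 7 at 6 against 3 months. Against the other 5, the ranges were 1 to 2 (3 months) and 0 to 1 (6 months) in cTEC, 0 to 3 in mTEClo, 0 to 1 in mTEChi and 0 to 1 in Sirpa- DC at 6 months, 0 to 1 at both ages in Sirpa+ DC, and 1 to 6 (3 months) and 3 to 7 (6 months) in fibroblasts. Of all counts compared, 397 stayed within 1.5 times or on their side of 0, 21 moved, 14 became larger from none and 11 were lost. The 4 age calls of Prg4 in cTEC and mTEClo kept direction and threshold under all alternatives run.

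Without fibroblasts, Lum against the mean of the others was 1.05 in cTEC, 0.15 in mTEClo and 0.11 in mTEChi, and with its dim second probe set Dcn in mTEClo was -0.15. The cause of changes in the calls was not tested. Equal array medians moved the median of all genes by over 0.1 in several comparisons, to -0.32 from -0.07 in mTEChi, to 0.21 from -0.03 in Sirpa- DC and to 0.19 from -0.07 in fibroblasts at 6 against 1 month. The share of higher calls there became 53.2%, 48.6% and 66%, against 72.4%, 32.4% and 43.7%. It became 71.9%, against 42.8%, in fibroblasts at 6 against 3 months, 61.8% against 40.8% at 6 months against the other 5, and 82.3% against 65.2% in Sirpa+ DC at 6 against 1 month. Of 383 counts over all genes, 75 moved by over 1.5 times.

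Same-numbered arrays of an age correlated in their deviations at -0.068 to 0.418 over 45 pairs of populations, with a median of 0.086 and 17 over 0.1. The largest values were all at 3 months. They were 0.418 for Sirpa- with Sirpa+ DC, 0.302 for Sirpa- DC with fibroblasts and 0.269 for mTEClo with mTEChi. For cTEC with mTEClo the value at 3 months was 0.145. The numbers were not taken to pair the samples, and whether 3-month samples of a number share animals or handling was not tested. With the replicate block, 1 gene was called in mTEClo at 6 months against the other 5, and no other count of genes called changed.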

Other observations

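At 3 against 1 month, 221 genes were higher in cTEC and 90 in mTEClo, and 15 were called in both (6.79% of the cTEC genes and 16.7% of the mTEClo genes), the arrays of an age possibly coming from the same mice. The genes named here were chosen after their values were seen. Beside Prg4 they include Serpina3n, a secreted serine protease inhibitor (2.29 in cTEC and 2.48 in mTEClo), Lcn2, an iron-siderophore binding protein (1.67 and 2.56), and Hgf, the ligand of Met (1.64 and 1.86). Smoc2, a matricellular protein, was 1.74 in cTEC and 2.18 in mTEClo, Vit 1.57 and 1.66, and Sprr1a 2.09 and 2.11. At 6 against 3 months, which uses the same 3-month arrays, Kcnk1 was 0.73 in cTEC and 0.63 in mTEClo, and Vit 0.29 and 0.48, while Prg4 was -3.66 and -4.13. Serpina3n was -1.74 and -1.30 (called in cTEC), Sprr1a -1.29 and -2.48 (called in mTEClo) and Mybpc2 -1.29 and -0.64 (called in cTEC).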
